A study of Mus musculus with 6 samples.

Results

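The interferon-stimulated genes are a list of 42 mouse genes that cells are known to switch on in response to interferon. They were matched by symbol to the gene rows of 3 single-cell RNA libraries of the mouse submandibular salivary gland, and 40 of the 42 matched among 32285 genes; Mx1 and Mx2 had no matching row and were not analysed here. The match used symbols alone, but the list itself was drawn up with earlier results of these data known. All mice were female, wild-type C57BL/6J, labelled as 8 to 10 weeks old. One library came from untreated glands sorted for basal cells (Epcam+, Cd49f-high). Another held all Epcam+ cells of untreated glands, and the last all Epcam+ cells taken 90 days after the left gland received 30 Gy. The labelled age cannot be the age at collection of the irradiated mice. Dead cells and cells carrying Cd3, Cd16/32, Cd31 or Cd45 were removed in the sort of every group. Each library pooled 3 mice told apart by antibody hashtags, so n = 3 mice a group, and library, treatment and, for irradiation, age cannot be told apart.

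Type I and type III interferons act on cell surface receptors whose Janus kinases phosphorylate Stat2, which joins Irf9 in a complex that binds interferon-stimulated response elements (ISRE) in promoters. Irf7 is both a target of that complex and a factor that drives more interferon, and the IFIT, OAS and ubiquitin-like proteins among the targets restrict viral RNA and protein synthesis. Interferon gamma uses a separate receptor and a different element (GAS), and its classic targets are large GTPases of the Gbp and Irg families. In the submandibular gland, granular duct cells store kallikreins and Egf, and ionocytes are rare duct cells defined by Ascl3 and Foxi1.

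The promoter stretches that carry the response element are shown because several of the largest changes described here belong to neighbours that share it almost letter for letter. RefSeq promoter windows of 300 bases on build GRCm38.p6, reaching from upstream of each gene's start to just after it, were given for 31 members. The ISRE motif, GAAA followed by any 2 bases and GAAA, searched on both strands with overlapping matches allowed, lay in 14 of these 31 members (45.2%), against 1079 of 27025 genes (3.99%). The GAS motif TTCNNNGAA lay in 6 of 31 (19.4%), against 9.55% of genes. A match is a run of letters and not a shown binding site. In the stretches, written 5′ to 3′ on the gene's strand, capitals mark the letters of the ISRE motif or its reverse complement.
Ifit1: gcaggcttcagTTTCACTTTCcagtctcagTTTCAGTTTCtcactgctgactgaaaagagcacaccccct
Ifit3: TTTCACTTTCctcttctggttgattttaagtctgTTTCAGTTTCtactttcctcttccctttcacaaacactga
Ifit3b: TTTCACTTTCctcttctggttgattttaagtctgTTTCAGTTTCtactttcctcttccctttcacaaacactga
Isg15: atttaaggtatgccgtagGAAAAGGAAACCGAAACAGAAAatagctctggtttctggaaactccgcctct
Rsad2: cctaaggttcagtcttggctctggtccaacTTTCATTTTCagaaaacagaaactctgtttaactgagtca
Oas1a: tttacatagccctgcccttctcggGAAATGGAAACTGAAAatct
Oas1g: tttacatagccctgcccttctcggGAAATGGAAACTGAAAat
Bst2: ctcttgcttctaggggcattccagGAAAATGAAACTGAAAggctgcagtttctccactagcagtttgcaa
These lie at chr19:34640774-34640843 (Ifit1, + strand), chr19:34583373-34583446 (Ifit3, +), chr19:34607769-34607842 (Ifit3b, +), chr4:156200845-156200914 (Isg15, -), chr12:26456533-26456602 (Rsad2, -), chr5:120907526-120907569 (Oas1a, -), chr5:120887614-120887655 (Oas1g, -) and chr8:71537557-71537626 (Bst2, -). Ifit3 and Ifit3b were identical over all 74 bases, and Oas1a and Oas1g over the 42 they share. The 2 genes of each pair are close copies, so the split of counts within a pair is uncertain. Irf7, Irf9, Xaf1 and Trim25, which also rose in granular cells, had no match to the ISRE motif in their windows, which says only that these letters are not there.

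After removal of barcodes with under 500 genes or over 20% mitochondrial UMIs, of hashtag doublets and of barcodes without a hashtag call, 2005 cells of the irradiated epithelium, 2090 of the untreated one and 3068 of the basal sort were kept, with 6829703 to 27023476 UMIs a mouse. Clusters were built without the members, and 2 classes had at least 20 cells in every mouse of both whole-epithelium groups. Granular duct-like cells numbered 133, 170 and 122 in the untreated and 177, 584 and 221 in the irradiated mice. Ionocyte-like cells numbered 206, 179 and 139, and 96, 462 and 187. Their defining markers were present: the granular list summed to 257732 to 384987 counts scaled to a total of 1000000 (CPM) in granular cells and 3825 to 12531 in ionocytes, and the ionocyte list to 4031 to 5229 CPM in ionocytes and 180 to 304 in granular cells. Different clusters held each class in the 2 groups. Untreated granular cells were cluster 13, and irradiated ones were mostly cluster 12 (877 cells, led by the antimicrobial lectin gene Reg3g) and cluster 17 (103 cells, led by Ren1 and kallikreins). Untreated ionocytes were cluster 11, and irradiated ones clusters 18 (647 cells) and 9 (98 cells). Depth and mitochondrial share also moved with the group: the median UMIs per granular cell were 18741 to 19361.5 untreated and 23160 to 26750 irradiated, and the median mitochondrial shares 9.94% to 10.1% and 3.47% to 4.23%. In ionocytes the medians were 10913 to 11212.5 and 13272 to 16824.5 UMIs, and 11.996% to 12.3% and 5.21% to 6.17% mitochondrial. The part of these differences in the results was not tested, apart from the stricter limits given with them.

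Granular duct-like cells of irradiated glands carried more RNA of nearly the whole list. Of 35 members tested, 32 rose, none fell and 3 did not pass, at an adjusted p under 0.05 in edgeR's quasi-likelihood test with Benjamini-Hochberg adjustment over all genes, which holds for every adjusted p here. Of the 9385 genes tested in these cells, 20.1% were called higher and 20.1% lower, so the background of the count of 32 is 20.1%. The median log2 fold change was 1.94 over the members and -0.04 over all genes. Among the 32, Zbp1, Ifi202b, Ifit3, Ifit3b, Rsad2, Herc6 and Cmpk2 were too low in untreated mice to pass the count filter without the irradiated ones. Their calls rest on the group where they are high. The 3 that did not pass were Ifi27, Sp100 and Uba7. A further 5 members had too few counts to be tested, Ifit2, Oas1a, Oas1g, Oas2 and Oas3.

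Ionocyte-like cells showed the same direction for fewer members and a smaller median. Of 35 members tested, 25 rose, 1 fell (Ifi27) and 9 did not pass, where 14.2% of all 9034 genes were called higher and 10.3% lower. Ifit3, Ifit3b, Oas1a and Oas1g were too low in untreated ionocytes to pass the count filter without the irradiated mice, so their calls rest on those mice. The median log2 fold change was 0.91 over the members and -0.00415 over all genes. DESeq2 called 18 higher, against 891 of 9034 genes, and 18 of 30 tested rose with at most 10% mitochondrial UMIs, against 630 of 6463 genes. Over all kept cells of the whole epithelium, whatever their class, 34 of 37 members rose and none fell, against 20.2% of 11886 genes higher and 19.4% lower. That comparison also holds the change in class makeup, since intercalated duct-like cells numbered 168 to 204 in the untreated mice and 0 to 6 in the irradiated ones. In whole-epithelium sums, more cells of a type and more RNA per cell cannot be told apart.

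**Figure D1:**
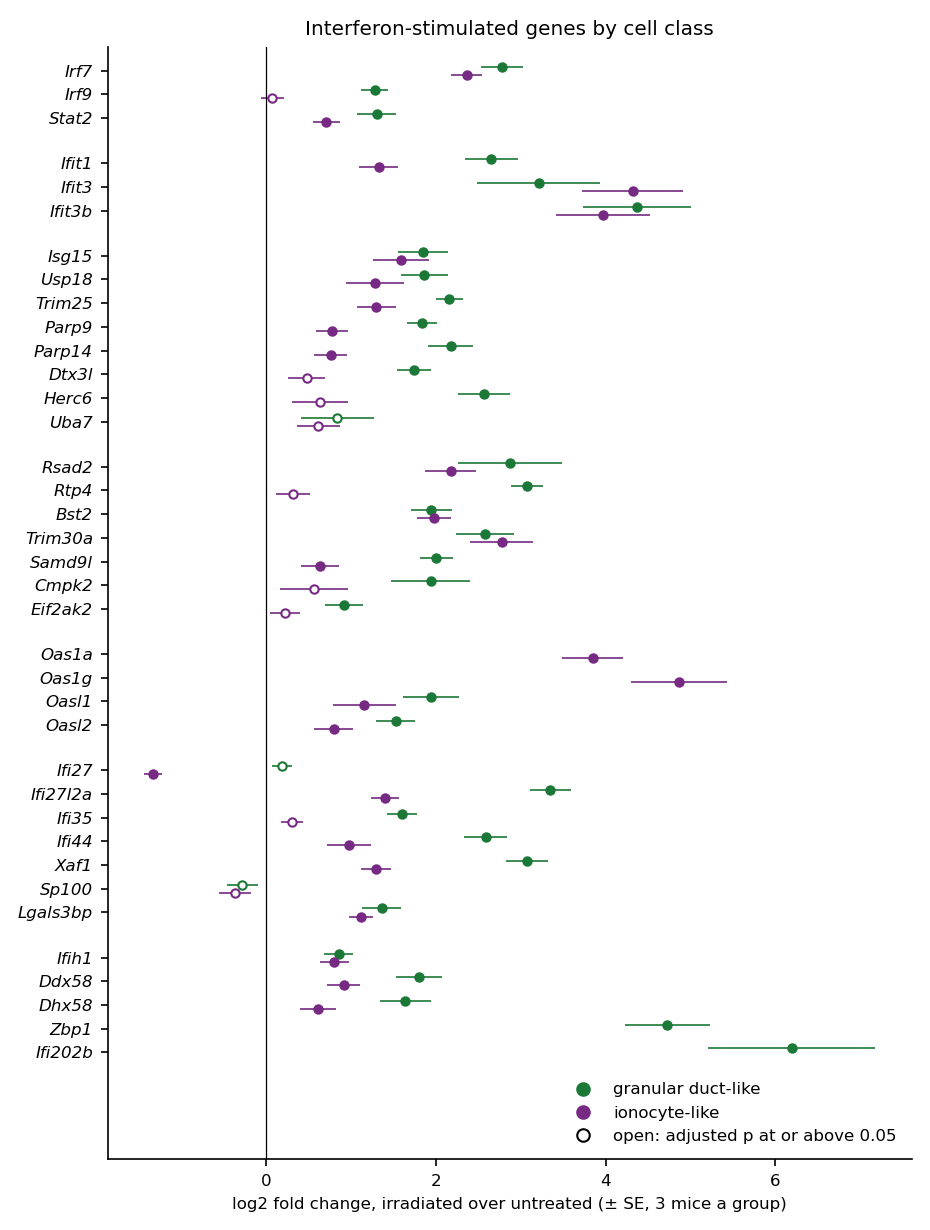
Log2 fold change of each tested member, irradiated over untreated, with its standard error (3 mice a group), in granular duct-like (green) and ionocyte-like (purple) cells; rows are grouped by role, and open points did not pass the adjusted p of 0.05. Green points lie right of 0 for all members but Sp100, and the purple point of Ifi27 lies at -1.33.

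Among the 3 transcription factors, all rose in granular cells and 2 rose in ionocytes, where 20.1% and 14.2% of all genes were called higher. Irf7 was at 24.0, 36.0 and 53.3 CPM in untreated granular cells and at 253, 248 and 315 CPM in irradiated ones, a log2 fold change of 2.78 ± 0.24 (SE, adjusted p = 4.88e-06). In ionocytes Irf7 went from 86.6, 105 and 134 to 438, 503 and 715 CPM, a log2 fold change of 2.36 ± 0.18 (adjusted p = 1.83e-07). In both classes every irradiated mouse lay above every untreated one. Irf9, the DNA-binding partner of Stat2, was at 16.7, 22.9 and 23.0 CPM and then 61.6, 49.9 and 50.7 CPM in granular cells (1.28 ± 0.16, adjusted p = 7.56e-05). In ionocytes Irf9 was at 43.5, 48.6 and 63.1 CPM untreated and 53.9, 50.2 and 57.3 irradiated, and the groups overlapped (log2 0.07 ± 0.14, adjusted p = 0.759). Irradiated granular cells thus reached the CPM that ionocytes held in both groups. Stat2 rose by 1.30 ± 0.23 in granular cells (adjusted p = 0.000841) and by 0.71 ± 0.16 in ionocytes (adjusted p = 0.00418).

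The IFIT genes, whose products bind viral RNA that lacks a host cap mark, had some of the largest changes. All 3 tested members rose in both classes, with a median log2 fold change of 3.21 in granular cells and 3.97 in ionocytes. Over all genes 20.1% and 14.2% were called higher in these classes. Ifit3 and Ifit3b passed the count filter in both classes only through the irradiated mice, so their calls rest on the group where they are high. Ifit1 was at 13.7, 21.7 and 46.7 CPM in untreated granular cells and at 194, 150 and 197 CPM after irradiation (2.66 ± 0.32, adjusted p = 5.04e-05). Ifit3 was uneven among the untreated mice, at 1.14, 0.894 and 35.3 CPM in granular cells, and at 88.3, 76.3 and 168 CPM in irradiated ones (3.21 ± 0.72, adjusted p = 0.00400). The groups did not overlap, but untreated mouse 3 stood far above the other 2 untreated mice. In ionocytes Ifit3 went from 0.427, 5.06 and 7.73 CPM to 24.7, 63.4 and 135 CPM (4.32 ± 0.59, adjusted p = 6.69e-05). Ifit3b, the near copy of Ifit3, rose by 4.37 ± 0.64 in granular cells and by 3.97 ± 0.56 in ionocytes. Ifit2 could not be followed, with 3 counts in all untreated and 1 in all irradiated granular cells.

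In the ubiquitin-like pathway, 7 of 8 members rose in granular cells and 5 of 8 in ionocytes, against 20.1% and 14.2% of all genes. Isg15, the small protein tag itself, was at 48.7, 36.0 and 103 CPM in untreated granular cells and 252, 203 and 253 CPM in irradiated ones (1.85 ± 0.30, adjusted p = 0.000451). In ionocytes Isg15 went from 95.6, 108 and 257 to 285, 369 and 698 CPM (1.59 ± 0.33, adjusted p = 0.00217), and mouse 3 was the highest of its group in both. Trim25, a ubiquitin and Isg15 ligase of the RNA sensing route, was at 11.4, 10.4 and 14.4 CPM and then 59.1, 52.0 and 58.2 CPM in granular cells (2.16 ± 0.16, adjusted p = 1.57e-06). Usp18, which removes Isg15 and damps the receptor, rose by 1.86 in granular cells and by 1.29 in ionocytes. The ionocyte call was lost with DESeq2 (1.18, adjusted p = 0.203), at most 10% mitochondrial UMIs (1.64, adjusted p = 0.0541), and without untreated replicate 2 (1.04, adjusted p = 0.0761) or irradiated replicate 3 (0.78, adjusted p = 0.0560). Herc6, an Isg15 ligase, rose in granular cells (2.57 ± 0.31, adjusted p = 5.17e-05), and in ionocytes its log2 fold change of 0.64 did not pass (adjusted p = 0.181). Uba7, the enzyme that activates Isg15, passed in neither class (0.84, adjusted p = 0.138, and 0.61, adjusted p = 0.0937). With at most 10% mitochondrial UMIs the granular changes of Isg15 (0.75, adjusted p = 0.149), Herc6 (1.61, adjusted p = 0.0507) and Ifit3 (1.11, adjusted p = 0.311) no longer passed. Under that limit 627 irradiated cells led by Reg3g took the striated duct name.

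**Figure D2:**
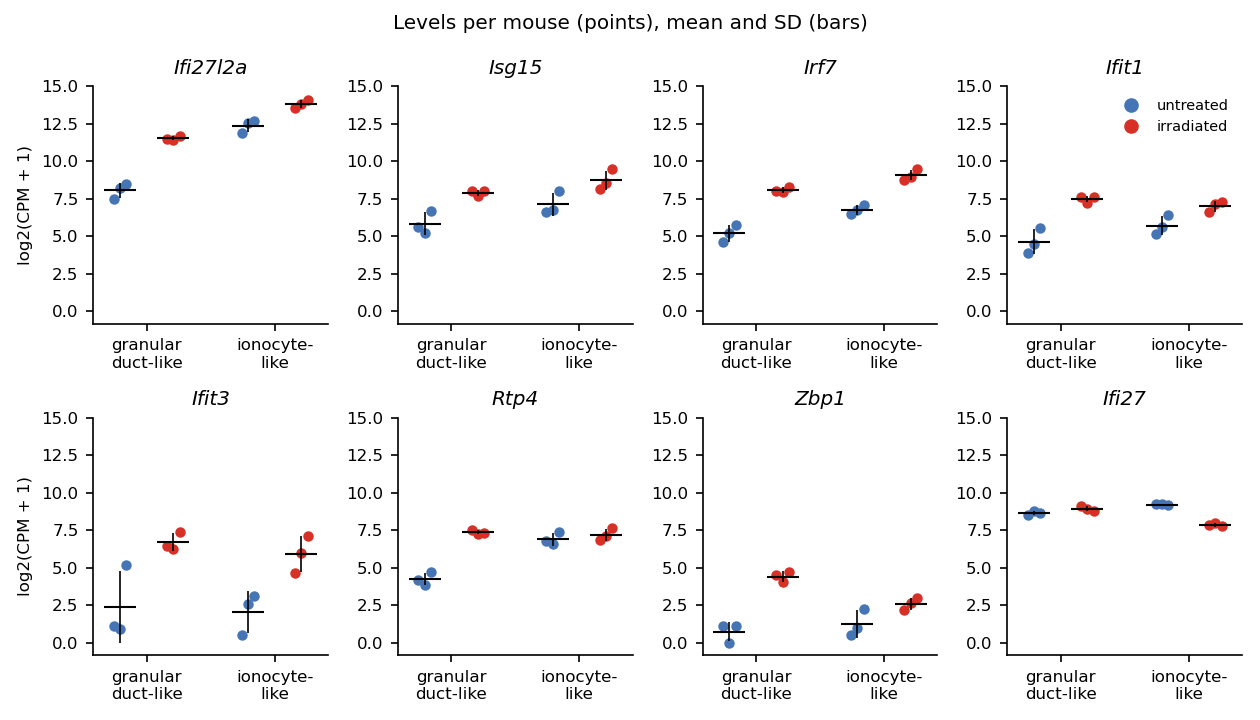
Level of 8 members in each mouse, as log2(CPM + 1), in granular duct-like and ionocyte-like cells of untreated (blue) and irradiated (red) glands; points are mice, the bars give the mean and SD of 3 mice. Irradiated points lie above all untreated points for Irf7, Isg15, Ifit1, Ifit3 and Ifi27l2a in both classes, while Ifi27 moves down in ionocytes, where its mean is 589 CPM untreated and 233 CPM irradiated.

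All 7 tested antiviral effectors rose in granular cells and 4 of 7 in ionocytes, against 20.1% and 14.2% of all genes. Bst2 (tetherin), which holds budding virus at the cell surface, rose by a like amount in both: from 26.6, 31.3 and 44.3 to 124, 109 and 179 CPM in granular cells (1.95 ± 0.24) and from 91.3, 141 and 175 to 638, 381 and 596 CPM in ionocytes (1.98 ± 0.20). Rtp4, which binds RNA helicases and receptors, did not. It was at 17.5, 13.7 and 25.01 CPM in untreated granular cells and 181, 152 and 159 CPM in irradiated ones (3.07 ± 0.18, adjusted p = 2.81e-07). In ionocytes it was at 110, 93.1 and 167 CPM untreated and 114, 135 and 201 CPM irradiated, with overlapping mice (0.32 ± 0.20, adjusted p = 0.280). Rsad2 (viperin), which makes a chain-terminating nucleotide, was at 0.761, 0.596 and 7.79 CPM and then 9.89, 24.4 and 27.6 CPM in granular cells (2.87 ± 0.61, adjusted p = 0.00293). DESeq2 did not call the granular changes of Rsad2 (2.71, adjusted p = 0.0570) and Ifit3 (3.08, adjusted p = 0.101), nor the ionocyte change of Isg15 (1.54, adjusted p = 0.0550). In ionocytes Rsad2 rose by 2.17 ± 0.30. Trim30a rose by 2.57 ± 0.34 and 2.78 ± 0.37 in the 2 classes. Eif2ak2 (PKR), the kinase that halts translation on double-stranded RNA, rose by 0.92 in granular cells and did not pass in ionocytes (0.22, adjusted p = 0.419).

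The oligoadenylate synthetases make the messenger that activates RNase L. In granular cells the counts of Oas1a, Oas1g, Oas2 and Oas3 were low. Oas1a was at 1.28, 3.04 and 3.22 CPM in untreated and 27.4, 28.3 and 48.5 CPM in irradiated ionocytes (3.85 ± 0.36, adjusted p = 1.45e-06). In granular cells Oas1a had 0 counts untreated and 52 irradiated, at least 5.59-fold higher against a floor of 3 counts over the untreated group. Oas1g had 2 counts in untreated and 122 in irradiated ionocytes, a ratio of 30.7 (95% exact interval 8.31 to 256, counting error only), and a fitted log2 fold change of 4.87 ± 0.57. Oas3 had 0 counts in untreated ionocytes and 30 in irradiated ones, at least 5.02-fold higher, and 0 and 14 counts in granular cells, at least 1.51-fold higher. Oas2 had 0 counts in both granular groups, and 1 and 26 counts in ionocytes, a ratio of 13.1 (95% exact interval 2.15 to 536). Oasl2, of the same family, went from 22.8, 25.02 and 44.3 to 80.4, 90.6 and 105 CPM in granular cells (1.53 ± 0.23). In ionocytes it rose by 0.80 ± 0.23, a call that was lost with DESeq2 (0.73) and without untreated replicate 1 (0.60), untreated replicate 2 (0.66) or irradiated replicate 3 (0.54).

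Ifi27l2a, a small membrane protein of interferon-treated cells, was the most abundant member in both irradiated classes. It was at 178, 297 and 355 CPM in untreated granular cells and at 2900, 2749 and 3304 CPM in irradiated ones (3.35 ± 0.24, adjusted p = 1.02e-06). In ionocytes it was already at 3829, 6045 and 6416 CPM and went to 11962, 14082 and 17010 CPM (1.40 ± 0.17, adjusted p = 1.62e-05). The level in irradiated granular cells lay below that of untreated ionocytes in every mouse. Ifi27, a mitochondrial membrane protein of the same family, behaved otherwise. It was at 372, 446 and 405 CPM and then 548, 485 and 447 CPM in granular cells (0.19 ± 0.12, adjusted p = 0.208). In ionocytes it fell from 597, 597 and 572 CPM to 226, 254 and 217 CPM (-1.33 ± 0.10, adjusted p = 2e-07). RefSeq places Ifi27 at chr12:103434189-103440245 and Ifi27l2a at chr12:103433873-103443680 on GRCm38.p6. These spans overlap, so the division of reads between them is uncertain.

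Of the other interferon-induced proteins, Xaf1, which binds the apoptosis inhibitor XIAP, rose from 9.51, 10.1 and 23.0 to 126, 119 and 124 CPM in granular cells (3.07 ± 0.25). In ionocytes Xaf1 went from 50.3, 41.5 and 65.7 to 96.3, 117 and 161 CPM (1.30 ± 0.18). Ifi44 rose by 2.59 ± 0.25 in granular cells and by 0.98 ± 0.26 in ionocytes, where the call was lost with DESeq2 (0.92) and without untreated replicate 1 (0.74), untreated replicate 2 (0.89) or irradiated replicate 3 (0.66). Ifi35 went from 14.8, 17.3 and 22.6 to 54.1, 57.2 and 62.2 CPM in granular cells (1.60 ± 0.17), and in ionocytes its log2 fold change of 0.31 did not pass (adjusted p = 0.115). Lgals3bp, a secreted galectin-binding protein, rose by 1.36 and 1.12 in the 2 classes. Sp100, a nuclear body protein, passed in neither (-0.28, adjusted p = 0.243, and -0.37, adjusted p = 0.192).

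All 5 sensors rose in granular cells, and the 3 tested in ionocytes rose there, against 20.1% and 14.2% of all genes. Ddx58 (RIG-I) and Dhx58 (LGP2), helicases that recognise viral RNA, rose by 1.80 and 1.64 in granular cells and by 0.91 and 0.61 in ionocytes. Ifih1 (MDA5), a helicase for long double-stranded RNA, rose by 0.86 and 0.80. With at most 10% mitochondrial UMIs the granular change of Ifih1 (0.65, adjusted p = 0.150) and the ionocyte change of Dhx58 (0.66, adjusted p = 0.224) did not pass. The Dhx58 call in ionocytes was also lost with DESeq2 (0.60), library size alone (0.61), and without untreated replicate 1 (0.50), untreated replicate 2 (0.53) or irradiated replicate 3 (0.39). Zbp1, a sensor of left-handed nucleic acids that can start necroptosis, was at 1.14, 0 and 1.23 CPM in untreated granular cells and 21.8, 15.3 and 25.4 CPM in irradiated ones (4.73 ± 0.50, adjusted p = 1.97e-05). In ionocytes Zbp1 had 9 counts untreated and 64 irradiated, too few to be tested. Ifi202b, a DNA-binding member of the Ifi200 family, had 3 counts in untreated granular cells (0, 0.894 and 0 CPM) and 608 in irradiated ones (58.9, 14.2 and 20.1 CPM). That is a ratio of 65.4 (95% exact interval 22.3 to 318) and a fitted log2 fold change of 6.19 ± 0.99 (adjusted p = 0.000425), with irradiated mouse 1 the highest. Zbp1 and Ifi202b are among the members that passed the count filter in granular cells only through the irradiated mice.

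The difference in the change between ionocytes and granular cells was itself tested, in a fit that kept each mouse as a block since both classes come from the same glands. Of 37 members tested, 21 had a lower log2 fold change in ionocytes than in granular cells and none a higher one, against 10.7% of 10046 genes lower and 7.12% higher. The median interaction was -0.94 over the members and -0.02 over all genes. Ifi27 (-1.58 ± 0.16) is among the 21 because it fell in ionocytes. Among the called members, Rtp4 had -2.81 ± 0.21 (adjusted p = 1.2e-10), Ifi27l2a -2.04 ± 0.17 (adjusted p = 7.94e-10) and Ifit1 -1.45 ± 0.23 (adjusted p = 5.19e-05). Zbp1 had -2.82 ± 0.86 (adjusted p = 0.0222), a call lost without untreated replicate 2 (-2.42, adjusted p = 0.0846) or 3 (-2.16, adjusted p = 0.322) and without Scrublet removal (-1.98, adjusted p = 0.0592). Its counts were 6 and 493 in untreated and irradiated granular cells, and 9 and 64 in ionocytes. Zbp1 passed the count filter of this fit only through irradiated granular cells, so the call rests on the group where it is high. Irf7 had -0.52 ± 0.18 (adjusted p = 0.0424), lost with DESeq2 (adjusted p = 0.199), without Scrublet removal (-0.26, adjusted p = 0.308), and without untreated replicate 1 (-0.38, adjusted p = 0.242), untreated replicate 2 (-0.53, adjusted p = 0.128) or irradiated replicate 1 (-0.40, adjusted p = 0.108). For Isg15 (-0.39 ± 0.22, adjusted p = 0.243), Ifit3 (0.78 ± 0.58, adjusted p = 0.405), Stat2 (-0.62 ± 0.23, adjusted p = 0.0639) and Bst2 (0.00 ± 0.23, adjusted p = 0.999) no difference passed. This count depended on the processing: DESeq2 called 13 lower, against 424 of 10046 genes. With at most 10% mitochondrial UMIs 5 of 36 were lower and 2 higher (Isg15, 1.30, and Ifit3, 5.69). Of 9181 genes, 319 were lower and 389 higher under that limit, so the share of members higher was near that of all genes. The granular class under that limit no longer held the Reg3g-led cells. The signs of Ifit1, Irf7 and Ifi44 also turned with at most 10% mitochondrial UMIs. With granular and striated duct-like cells joined, an alternative chosen after seeing the data, 19 were lower, and 6 lower and 1 higher under that mitochondrial limit. Over all genes these 2 fits called 996 of 10781 lower, and 247 lower and 305 higher of 9406. The granular count itself was 27 of 32 tested under the limit, and 32 of 35 under the limit with the classes joined. Over all genes 953 of 7706 and 1257 of 8940 were higher in these fits.

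The 2 irradiated granular clusters differed in level, given here as a description because the clusters were drawn from the same cells. The summed members reached 5803, 5497 and 7338 CPM in the Reg3g-led cluster and 2319, 2741 and 3637 CPM in the kallikrein-led one (7, 48 and 48 cells), against 917, 1183 and 1464 CPM in untreated granular cells. Isg15 was at 267, 231 and 312 CPM in the first and at 31.9, 35.8 and 129 CPM in the second, where it overlapped the untreated range of 36.0 to 103 CPM. Irf7 was at 263, 267 and 371 CPM and at 95.6, 142 and 198 CPM, both above the untreated 24.0 to 53.3 CPM. In ionocytes the large irradiated cluster held 15488, 17194 and 21827 CPM of summed members and the small one, with a median of 2200 UMIs a cell, 7593, 6350 and 5183 CPM.

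Summed over all 40 members, the level differed between classes already in untreated glands. It was 7339 ± 1680 CPM (SD, n = 3 mice) in ionocytes, 3785 ± 970 in intercalated duct-like, 2640 ± 634 in striated duct-like, 1188 ± 273 in granular duct-like and 532 ± 169 in acinar-like cells. In the basal sort it was 1998 ± 338 CPM in myoepithelial-like and 985 ± 39.3 in basal duct-like cells. The mice of intercalated and striated cells overlapped (2772, 4705 and 3879 against 1948, 3193 and 2778 CPM), and so did those of granular cells and basal duct-like cells. After irradiation the sums were 5582, 5118 and 6145 CPM in granular cells and 14854, 17082 and 21350 CPM in ionocytes. Each irradiated ionocyte value lay above those of all other classes given here.

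Ifi27l2a made up 73.6% ± 3.91 (SD, n = 3) of the summed level in untreated ionocytes and 80.9% ± 1.42 in irradiated ones, and 22.9% ± 3.09 and 53.1% ± 1.03 in granular cells. Without Ifi27l2a the sums were 1909 ± 372 and 3411 ± 806 CPM in untreated and irradiated ionocytes, and 912 ± 186 and 2631 ± 240 CPM in granular cells. Among the untreated whole-epithelium classes given above, the order of the means was the same without it. With the basal sort included the order changed. Myoepithelial-like cells (1422 CPM) then stood above striated ones (1331 CPM), and basal duct-like cells (936 CPM) above granular ones (912 CPM). Also without Ifi27l2a, untreated ionocytes (1653, 1739 and 2336 CPM) overlapped untreated intercalated cells (1742, 1961 and 1733 CPM), and irradiated granular cells (2682, 2369 and 2841 CPM) lay just under irradiated ionocytes (2893, 3000 and 4340 CPM). In untreated acinar-like cells Ifi27l2a made up 66.9%, and Ifit2, Ifit3, Ifit3b, Oas2 and Oas3 had 0 counts. The 3 members of highest CPM in untreated granular cells were Ifi27 (408), Ifi27l2a (276) and Sp100 (70.9). In irradiated granular cells they were Ifi27l2a (2985), Ifi27 (493) and Irf7 (272), and in irradiated ionocytes Ifi27l2a (14351), Irf7 (552) and Bst2 (538). CPM of 3′ end counts do not scale with gene length.

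**Figure D3:**
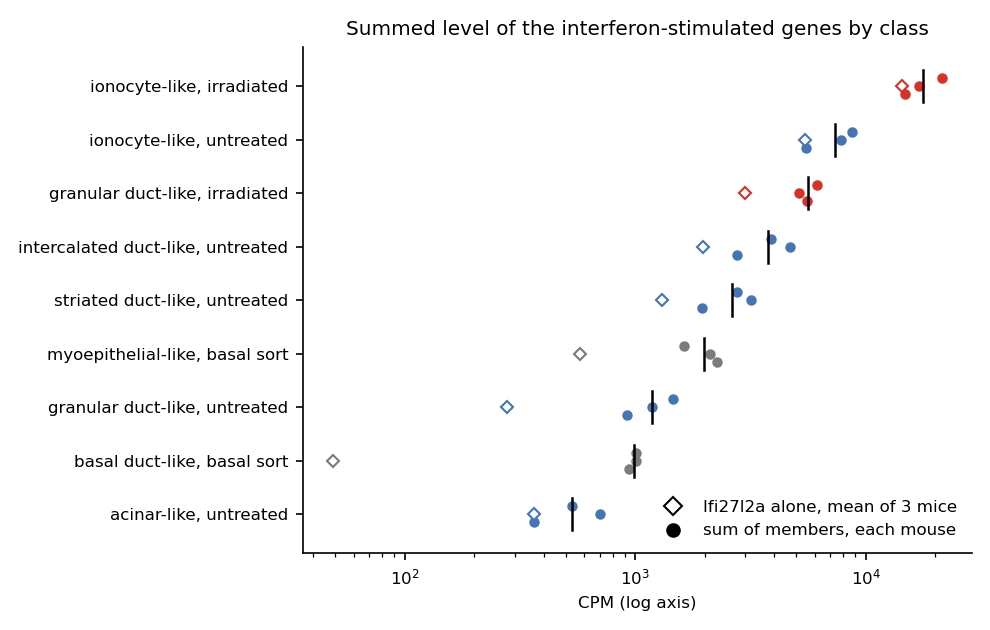
Summed CPM of the 40 members (filled points, each mouse; vertical bar, mean of 3 mice) and mean CPM of Ifi27l2a alone (open diamonds), by class and library, on a log axis. Ionocyte-like cells lead in both groups, at means of 7339 and 17762 CPM, and irradiated granular duct-like cells, at 5615 CPM, lie above untreated intercalated duct-like cells, at 3785 CPM.

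Free RNA from ionocytes in other droplets was looked at through the 9 ionocyte markers. The Ifi27l2a level of granular cells was 5.03% ± 0.456 of the ionocyte level in untreated mice and 21.1% ± 2.76 in irradiated mice. Of the 9 markers, Ascl3, Foxi1, Stap1, Atp6v1g3, Foxi2, Atp6v1b1 and Slc12a2 stood in granular cells at 0.460% to 2.28% of their ionocyte level untreated and at 0.221% to 0.881% irradiated. Cftr, a chloride channel, stood at 31.9% and 53.7%, and Atp6v0d2, a proton pump subunit, at 28.5% and 70.4%. Marker lists of other cell types also moved. The 13-gene leukocyte list summed to 6.58 to 28.2 CPM in untreated and 130 to 203 CPM in irradiated ionocytes, with 5 to 6 and 3 to 7 of the 13 genes detected. Cd74 made up 101 to 153 CPM of it in irradiated ionocytes and Lyz2 5.71 to 49.9 CPM. In granular cells the list summed to 4.94 to 25.02 and 28.7 to 33.4 CPM, with 3 to 5 and 3 to 10 genes detected. Ptprc, which encodes the Cd45 used in the sort, had 0 and 2 counts in granular cells and 1 and 1 in ionocytes, and Cd3e had 0 in all 4 groups. The 8-gene fibroblast list in ionocytes, of which 1 to 3 genes were detected, summed to 39.5 to 97.7 CPM untreated and 207 to 482 CPM irradiated, nearly all of it Dcn, and stayed at or under 2.66 CPM in granular cells. The 9-gene luminal duct list, with 7 to 9 genes detected, stood at 9030 to 11373 and 18282 to 22019 CPM in granular cells, and at 8136 to 9542 and 17559 to 19510 CPM in ionocytes. The 8-gene cycling list summed to 0 to 1.52 and 8.54 to 23.7 CPM in granular cells, with 0 to 3 and 5 to 8 genes detected. Acinar markers summed to 2620 to 2994 CPM untreated and 34.4 to 48.6 CPM irradiated in ionocytes, and to 1727 to 2071 and 395 to 927 CPM in granular cells. The part of these lists in the members' changes was not tested.

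Within a class, the spread between cells was measured on the summed members after thinning each cell to 2000 UMIs, which left out at most 1 granular cell and 19 ionocytes a mouse. In granular cells the mean was 2.65 ± 0.673 UMIs a cell untreated and 12.04 ± 1.41 irradiated (SD over mice), and the median was 1.83 and 10.0. In unthinned cells the means were 18.1 to 29.3 and 134 to 178 UMIs. Cells without any member UMI made up 16.2% untreated and 0.551% irradiated (exact permutation test, two-sided p = 0.1, the smallest that 3 mice against 3 can give). The 10% of cells with the most member UMIs held 36.3% of member UMIs untreated and 27.3% irradiated (exact permutation test, p = 0.1). At 4000 UMIs a cell the groups overlapped (33.7% and 26.4%, exact permutation test, p = 0.2). Both shares also depend on the mean count a cell, which differed between the groups, so they do not measure spread alone. In ionocytes the mean went from 14.9 ± 3.57 to 33.6 ± 6.21 UMIs a cell and the share held by the top 10% of cells from 24.3% to 19.98% (exact permutation test, p = 0.1). With at most 10% mitochondrial UMIs the ionocyte groups overlapped in that share (22.5% and 20.5%, exact permutation test, p = 0.3).

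The Fano factor, the variance of the summed members divided by their mean, was 2.45, 2.19 and 9.17 in untreated and 6.32, 5.89 and 10.4 in irradiated granular cells. The groups overlapped (exact permutation test, p = 0.3), untreated mouse 3 being as high as the irradiated mice, and with at most 10% mitochondrial UMIs the difference turned from 2.92 to -1.68. Under that limit the 627 Reg3g-led irradiated cells took the striated name. The irradiated granular class then held 288 cells in place of 980, so the 2 values describe different sets of cells. In ionocytes the factor was 5.20, 6.27 and 8.36 untreated and 8.46, 8.69 and 11.7 irradiated (exact permutation test, p = 0.1). The ionocyte groups overlapped at 4000 UMIs a cell (means 13.3 and 14.6, exact permutation p = 0.7) and without the 3 most abundant members (2.95 and 4.68, exact permutation p = 0.2). These 3 were Ifi27l2a, Ifi27 and Isg15, taken by mean CPM over all kept cells of all libraries and not by class. Single cells with many members were found in each group, in untreated granular cells only in mouse 3. Cells with at least 10 different members among their 2000 UMIs numbered 0, 0 and 3 in untreated and 7, 37 and 24 in irradiated granular cells, and 2, 2 and 7 in untreated and 5, 21 and 19 in irradiated ionocytes. The highest single cells held 13, 12 and 53 member UMIs in untreated and 52, 59 and 110 in irradiated granular cells.

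**Figure D4:**
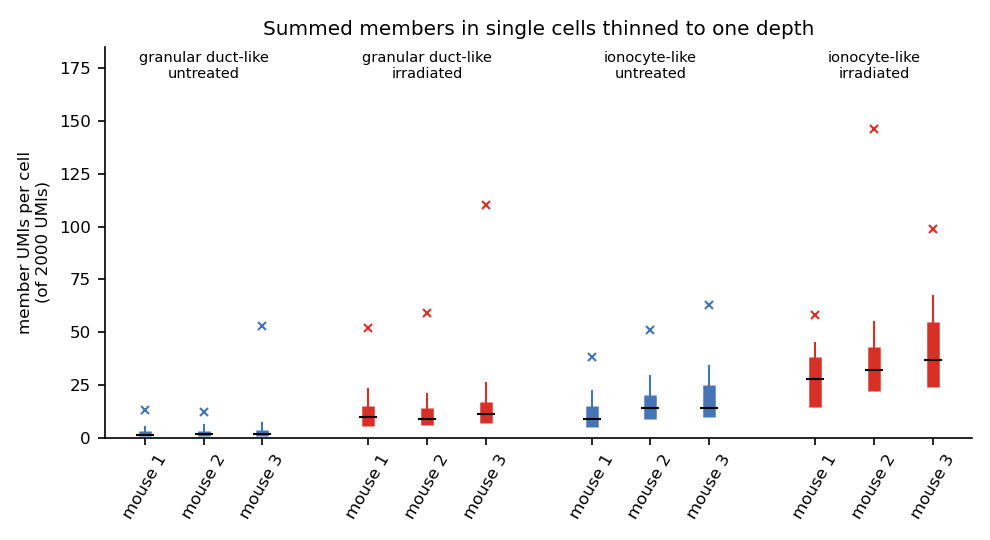
Member UMIs per cell after thinning each cell to 2000 UMIs, by mouse; thick bars span the middle 50% of cells, thin lines reach the cell at 90%, black marks are medians and crosses the highest cell. Medians of irradiated granular cells average 10.0 against 1.83 untreated, and the highest granular cell of untreated mouse 3 holds 53 UMIs.

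Joint variation of the members was described by ranking. Cells were ranked by the summed UMIs of all members other than the one examined, and its mean was compared between the upper and the lower 25% of cells. In irradiated granular cells, 21 of the 27 members with at least 50 thinned UMIs were higher in the upper group in all 3 mice, and in irradiated ionocytes 14 of 24. Untreated cells showed it too, with 3 of 4 such members in granular cells and 8 of 11 in ionocytes. Genes outside the list were not ranked this way. Most of the ionocyte sum was Ifi27l2a, so the other members were ranked there largely by that gene. The irradiated granular cells here include both clusters, which differ in member level. In irradiated granular cells Isg15 averaged 1.29 UMIs in the upper group and 0.0790 in the lower one, Ifit3 0.715 and 0.0289, Irf7 0.991 and 0.346, and Ifi27l2a 8.36 and 5.20. Ifi27 went the other way, with 0.692 in the upper and 1.08 in the lower group. The variance of the sum over the sum of the members' variances, which is 1 where members vary independently, was 2.24 untreated and 1.74 irradiated in granular cells, and 1.194 and 1.198 in ionocytes. Without Ifi27l2a, Ifi27 and Isg15 it was 2.22 and 2.97 in granular cells and 2.22 and 2.67 in ionocytes. The mice overlapped in each of these 4 comparisons, and 3 mice against 3 cannot give a p under 0.1.

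The rest of the pathway was followed through 7 lists. Of 12 interferon genes listed as ligands none had enough counts to be tested; they summed to 6, 13 and 15 counts in the basal, untreated and irradiated libraries. Of 6 receptor genes, 4 rose and 1 fell in granular cells, and 4 rose in ionocytes. The largest was Ifngr2, the signalling chain of the interferon gamma receptor, at 4.94, 8.04 and 7.38 CPM and then 57.3, 53.6 and 50.7 CPM in granular cells (2.89 ± 0.18), and at 36.7, 27.3 and 27.7 and then 84.0, 76.8 and 65.3 CPM in ionocytes (1.27 ± 0.14). Ifnar1, a chain of the type I receptor, fell by 0.65 in granular cells on the log2 scale (adjusted p = 0.0364). Of 9 tested transducers and factors 2 rose and 2 fell in each class, a share near the background of 20.1% higher and 20.1% lower in granular cells (14.2% and 10.3% in ionocytes). Irf1, a factor induced by both interferon types, fell from 235, 110 and 183 to 44.3, 30.1 and 31.3 CPM in granular cells (-2.41 ± 0.23) and by 0.57 on the log2 scale in ionocytes, opposite in sign to Irf7. Irf3, the factor activated by nucleic acid sensors, had -0.996 and -0.68.

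Of 10 negative regulators 2 rose and 1 fell in each class, which is also near those background shares. Ptpn2, a phosphatase of Jak1, rose by 1.79 and 0.97, and Socs3, which blocks Jak kinases, had -2.31 in granular cells and -1.25 in ionocytes. Of the sensing genes outside the members, 2 rose and 1 fell among 8 in granular cells and 3 rose among 8 in ionocytes. Over all genes 20.1% were higher and 20.1% lower in granular cells, and 14.2% and 10.3% in ionocytes. The granular counts of the sensing genes lay near these shares. The GTPases typical of interferon gamma rose in granular cells in 8 of 8 tested. Gbp2 was at 6.08, 6.26 and 6.56 CPM untreated and 77.1, 67.7 and 76.6 CPM irradiated (3.47 ± 0.16), and Iigp1 rose by 3.88 ± 0.66. In ionocytes 5 of 11 rose, led by Gbp8 (3.29 ± 0.28) and Gbp9 (2.61 ± 0.45), and Irgm1 fell (-0.64 ± 0.12). Ifitm3, which blocks virus entry, rose by 2.54 ± 0.27 in granular cells and by 1.16 ± 0.10 in ionocytes.

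The basal sort was compared with the untreated whole epithelium, which uses the same untreated mice as the irradiation comparison. Of 36 members tested 4 were higher and 24 lower in the basal sort, where 36.0% of 12870 genes were higher and 36.9% lower, and the members' median was -0.61. Scaling by library size alone, which moves the median of all genes from -0.03 to 0.49, gave 9 higher and 13 lower. Over all 12870 genes it called 6729 higher and 2716 lower. Calling mice by hashtag share gave 7 higher and 11 lower of 36 members, against 4182 higher and 3107 lower of 12104 genes. The share of members lower was then near that of all genes. Under library size alone the signs of Ddx58, Ifi27, Irf9 and Parp14 turned. Both groups hold all kept cells, whatever their class, so class makeup and RNA per cell cannot be told apart here. Ionocyte-like cells numbered 524 in the untreated epithelium and 6 in the basal sort. Ifi27l2a was at 1074, 1572 and 1561 CPM in the whole epithelium and 125, 128 and 99.9 CPM in the basal sort (-4.11 ± 0.19, adjusted p = 1.7e-07). Of its 53883 counts in the untreated epithelium, 30885 came from ionocyte-like cells. Irf7 was at 40.9, 44.9 and 54.2 CPM and at 16.4, 16.2 and 15.1 CPM (-2.07 ± 0.12).

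The 4 members higher in the basal sort were Ifi202b, Ifit2, Samd9l and Dtx3l. Ifi202b was at 1.65, 4.49 and 16.6 CPM in the whole epithelium and at 134, 69.5 and 182 CPM in the basal sort (3.61 ± 0.63, adjusted p = 0.000589). It was the second most abundant member of basal duct-like cells, at 134 CPM against 394.5 for Ifi27 and 48.9 for Ifi27l2a. Ifit2 was at 0.988, 0.544 and 0.616 CPM and at 5.40, 4.05 and 5.74 CPM (2.32 ± 0.29). The interferon gamma type GTPases went the other way from most members, with 13 of 15 higher and 1 lower, led by Gbp4 (3.76 ± 0.42), Gbp6 (2.89 ± 0.13) and Ifi47 (2.66 ± 0.16). Over all genes 36.0% were higher and 36.9% lower. The sort also held endothelial-like cells (115 of 3068), whose summed members stood at 7485 to 7813 CPM, and Cd74 at 184 to 216 CPM against 8.07 to 8.98. Their part in the sort's values was not tested.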

How the data were processed

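Raw UMI counts of each gene in each barcode were deposited; the submitters' processing notes name Cell Ranger 6.1.2 and mm10. Mice were called from hashtag counts with HTODemux (Seurat 5.3.0, R 4.3.3, 5 starting clusters, quantile 0.99), and likely doublets removed by Scrublet score (area under the curve 0.582 to 0.613 against hashtag doublets); clusters came from scanpy 1.11.5. Clustering (2000 variable genes without members, 30 components, 15 neighbours, resolution 1) used no batch correction, and classes were rebuilt from marker lists. Libraries shared at most 3 barcodes. Sums per mouse went into edgeR 4.0.16 (with limma 3.58.1), using TMM scaling, filterByExpr, the quasi-likelihood test and Benjamini-Hochberg adjustment at 0.05. DESeq2 1.42.0 served as an alternative, and the fits were checked on simulated counts. The members and lists were chosen with earlier results of these data known. Named are members past the threshold in a class or the interaction (up to 10 by size, at least 10 CPM), the 3 highest per class, those at 0, Irf7, Stat2, Irf9, Isg15, Ifit1, Ifit3 and Ifi202b, and up to 3 genes per pathway list; other members with smaller changes were named to complete each role after their values were seen. With 1 library a group, p-values measure the spread between mice within a library. Same-numbered mice did not deviate together (correlations -0.36 to 0.07 over 4 comparisons), so numbers did not pair them.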

Additional observations from a re-analysis of the deposited data

Results flagged for a closer look

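The irradiation change differed between ionocyte-like and granular duct-like cells for 21 of 37 members tested, by edgeR's interaction test at an adjusted p under 0.05. All 21 were lower in ionocytes, against 10.7% of 10046 genes. The log2 difference, ionocyte minus granular, was -2.82 for Zbp1, -2.81 for Rtp4, -2.04 for Ifi27l2a, -2.01 for Herc6, -1.87 for Xaf1, -1.67 for Ifi44 and -1.58 for Ifi27. It was -1.48 for Parp14, -1.47 for Cmpk2, -1.45 for Ifit1, -1.35 for Ifi35, -1.35 for Samd9l, -1.27 for Dtx3l and -1.23 for Irf9. It was -1.09 for Parp9, -1.06 for Dhx58, -0.94 for Ddx58, -0.90 for Trim25, -0.82 for Oasl2, -0.75 for Eif2ak2 and -0.52 for Irf7. Of these 21, Ifi27 alone is a member whose ionocyte change was a called fall. Zbp1 had too few counts in ionocytes to be tested within them, and entered this test only through irradiated granular cells. With at most 10% mitochondrial UMIs 5 of 36 members were past the threshold on this side, against 319 of 9181 genes.

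Barcodes without a hashtag call entered no comparison. In the irradiated library the summed members stood at 7818 CPM in 295 such cells, against 673 CPM in 1778 cells of the untreated and 1150 CPM in 998 cells of the basal library. These are 1 value a library, with no test.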

How the results depend on the processing

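With 3 mice in 1 library a group and classes rebuilt here, changes of members under about 10 CPM had wide errors. When mice were left out in turn, members higher and lower numbered 32 to 35 and 0 to 1 over all cells (1 without untreated replicate 1), 32 to 33 and 0 in granular cells, 19 to 29 and 1 to 2 in ionocytes, 3 to 5 and 20 to 24 in the basal sort, and 0 and 15 to 22 in the difference between classes. Over all genes these fits called 1855 to 2395 higher and 1531 to 2199 lower in all cells. They called 1574 to 2039 and 1335 to 1804 in granular cells, and 924 to 1241 and 622 to 859 in ionocytes. In the basal sort they called 4363 to 4727 and 4441 to 4848, and in the difference between classes 472 to 679 and 657 to 931. Granular calls were 30 with DESeq2, against 1652 of 9385 genes. With mouse numbers as a replicate block, which do not pair the mice, counts were 34 and 0, 32 and 0, 24 and 2, and 4 and 20 in the basal sort. Without a filter on low counts 2 members were lower in ionocytes.

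The difference between classes had 13 lower with DESeq2. With at most 10% mitochondrial UMIs it had 2 higher and 5 lower, and with striated cells joined as well 1 higher and 6 lower. Over all genes DESeq2 called 424 lower of 10046. The limit gave 389 higher and 319 lower of 9181, and with cells joined 305 and 247 of 9406. Under the first limit the signs turned for Ifi44 (0.35), Isg15 (1.30), Irf7 (0.083) and Ifit1 (0.33), and with cells joined for Isg15 (0.25) and Ifi202b (1.66). Ifit3 had -0.28 with DESeq2 and -1.99 to 1.66 with mice left out (the low value without untreated replicate 3). The granular Fano difference became -1.68 under the limit, where the granular class no longer held the 627 Reg3g-led irradiated cells. The cause of these shifts was not tested.

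In the basal sort, library size alone gave 9 higher and 13 lower, with Ddx58 at 0.083, Ifi27 at 0.22, Irf9 at 0.21 and Parp14 at 0.055. Of all 12870 genes, 6729 were then higher and 2716 lower. Mice called by hashtag share gave 7 higher and 11 lower, with Ifit3 at 0.25, against 4182 higher and 3107 lower of 12104 genes. This alternative was not run within classes, where a mouse had under 20 cells. Near 0, Ifi27 over all cells had -0.00352 with the replicate block, -0.029 without Scrublet removal and -0.10 to 0.070 with mice left out, and Irf9 in ionocytes -0.052 to 0.22. Joining striated cells was chosen after seeing the data.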

Other observations

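All 14 UMIs of Ifnb1, the interferon beta gene, came from 1 irradiated cell of mouse 2, in an unnamed cluster. It held 22302 UMIs, of which 915 (4.10%) were of members, and 33 of the 40 members were detected. The median member share over the 130 irradiated cells of its cluster was 0.428%, and 13 of 2005 irradiated cells had a higher share. Its most abundant members were Ifit3b (170 UMIs), Ifit1 (154), Rsad2 (135), Ifit3 (131) and Isg15 (102), with Ifi27l2a at 37, and Ptprc was at 0.

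All 12 UMIs of Ifng, the interferon gamma gene, came from 1 untreated cell of mouse 2 in the intercalated duct-like cluster. It held 5607 UMIs, 7 of them of members (0.125%), with 4 of Ptprc and 1 of Cd3e, and 1370 of 2090 untreated cells had a higher member share. Both cells were chosen after their values were seen.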
